A study of Homo sapiens with 12 samples.

Results

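The regions described here carried acetylation of lysine 9 of histone H3 (H3K9ac) at about the same width, or a smaller one, after nitric oxide than without it. The cells were MDA-MB-231, a line from a human breast tumour of the triple negative kind, and were given 500 µM DETA/NO for 24 h or left untreated. DETA/NO is a compound that releases nitric oxide slowly. The labels describe overnight serum starvation before the compound was added and do not say separately whether untreated cells were starved, so from the labels alone starvation and DETA/NO cannot be told apart. Both H3K9ac and dimethylation of the same residue (H3K9me2) were mapped by chromatin immunoprecipitation and sequencing. Each mark had 2 biological replicates of DETA/NO-treated cells and 2 of untreated cells, all from this 1 cell line. The authors deposited a reproducible H3K9ac set per condition, with 21098 treated and 14377 untreated regions. A pair was formed on the 22 autosomes where an untreated region overlapped exactly 1 treated region and that region overlapped no other untreated one. Of 9274 such pairs, 1518 had a treated width of at most 1.25 times the untreated width, which is 16.4% (95% Wilson interval 15.6 to 17.1, which like all such intervals here covers counting error only). They are called members below. The other 7756 pairs are called widened. The limit of 1.25 was applied to these same H3K9ac calls, so H3K9ac widths and scores of the members are given as a description, without a test.

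H3K9ac is laid down by histone acetyltransferases on the nucleosomes that flank active promoters and enhancers, and its width follows how far the acetylated nucleosomes reach from the start site. H3K9me2 is placed on the same residue by methyltransferases such as G9a and lies in broad silent domains, so one tail cannot hold both marks. Nitric oxide can bind the iron of Jumonji-family demethylases, enzymes that remove methyl groups from histones.

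Members made up a minority of the regions of either set. Of 20509 autosomal treated regions, 9274 were in one-to-one pairs, 9176 met no untreated region, 1698 met several and 361 shared their partner. Of 14043 autosomal untreated regions, 9274 were in one-to-one pairs, 1001 met no treated region, 196 met several and 3572 shared their partner with another. Regions that merged into 1 treated region therefore lie outside the pairs.

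Most members were not exactly stable but slightly wider. The width ratio was above 1 in 1201 members, equal to 1 in 4 and below 1 in 313. The median member was 1597 bp wide in the treated set and 1444 bp in the untreated set, and the median ratio was 1.12. The median widened pair was 2324 bp wide in the treated set and 1231 bp in the untreated set, with a median ratio of 1.76. Members were therefore narrower than widened pairs with nitric oxide and wider without it. Splitting the members at 0.8, the inverse of the limit, gave 1423 that kept their width and 95 that narrowed. This split was chosen after the values were seen.

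**Figure D1:**
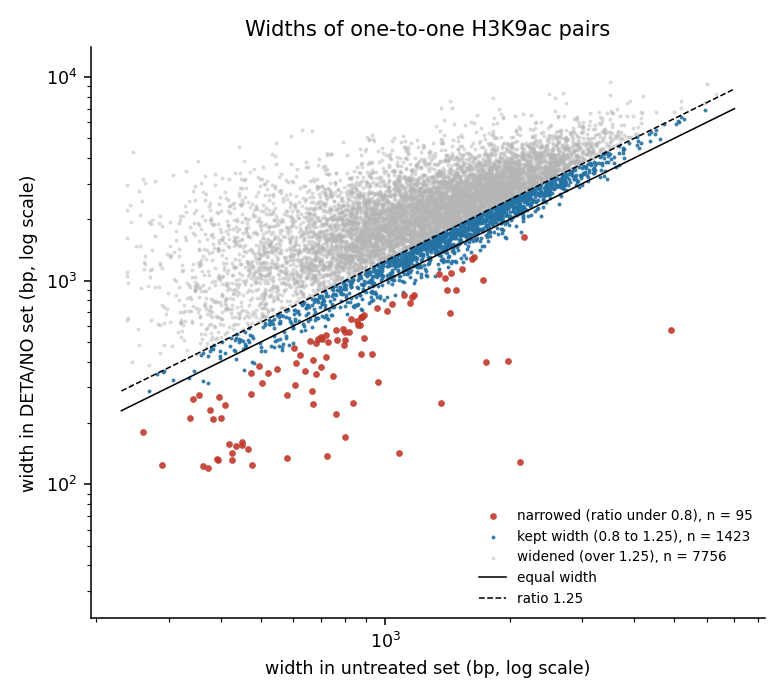
Width of each one-to-one H3K9ac pair in the DETA/NO set (vertical) against the untreated set (horizontal), both in bp on log scales; each point is 1 pair, the solid line is equal width and the dashed line a ratio of 1.25. The 1423 blue pairs lie along the line of equal width over the whole range, and the 95 red narrowed pairs include a group with treated regions under 238 bp.

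Members and widened pairs had close median scores in the reproducible sets but not in the treated library lists. Each reproducible region has a score from the authors, which is the −log10 of its irreproducible discovery rate (IDR). It had a median of 5.52 for members and 5.51 for widened pairs in the treated set. In the untreated set it was 2.84 for members and 2.88 for widened pairs. Ranked among the same 9274 pairs, the median member stood at percentile 50.1 by treated score and 48.9 by untreated score. In the single-library lists, which carry another peak score from the authors' caller, members ranked somewhat lower with nitric oxide. The highest peak of the median member stood at percentiles 38.7 and 40.6 among the pairs in treated replicates 1 and 2, and at 48.0 and 46.4 in untreated replicates 1 and 2. For widened pairs these percentiles were 51.5 and 51.5 in treated libraries, against 50.4 and 50.5 in untreated libraries.

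By the median signed shift, the edges of members that kept their width moved less than those of widened pairs. The median shift of an edge, counted as positive when the treated edge lay further out, was 70 bp at the left and 80 bp at the right. In widened pairs it was 465 bp at the left and 466 bp at the right. Both edges stayed within 100 bp in 314 of the 1423 and within 50 bp in 93. Both edges moved outward in 724, and both inward in 59. In 186 the whole region slid, with both edges moving over 100 bp in the same sense, so a kept width did not always mean a kept position.

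The treated and untreated libraries were then read one by one at these pairs, and each member had a peak in all 4 H3K9ac libraries. The span ran from the first to the last base of all peaks that touch the outer bounds of both regions of a pair. It can therefore reach past the pair. In members its median was 1600 and 1442 bp in treated replicates 1 and 2, against 1387 and 1049 bp in untreated replicates 1 and 2. Treated spans were higher than both untreated ones, and untreated replicate 2 was the lowest. Widened pairs had 2296 and 1972 bp in treated libraries, against 1436 and 1215 bp in untreated libraries. The mean length covered by peaks was 1613 bp ± 110 per member in treated cells and 1273 bp ± 287 in untreated cells (SD, n = 2 each), a difference of 340 bp. It was 543 bp without untreated replicate 1 and 137 bp without untreated replicate 2. For widened pairs it was 2228 bp ± 300 in treated cells and 1257 bp ± 194 in untreated cells.

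Peaks covered more bases in both treated libraries than in both untreated ones in 822 members, or 54.2%. The same held for 85.8% of all 21312 merged autosomal H3K9ac regions and for 95.7% of widened pairs. The opposite order, with both treated libraries below both untreated ones, was found in 52 members, or 3.43%, against 3.98% of all merged regions and 0 widened pairs. Of those 52 members, 47 were among the 95 that narrowed. The rule used this contrast, so nothing about the members is read from these shares.

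**Figure D2:**
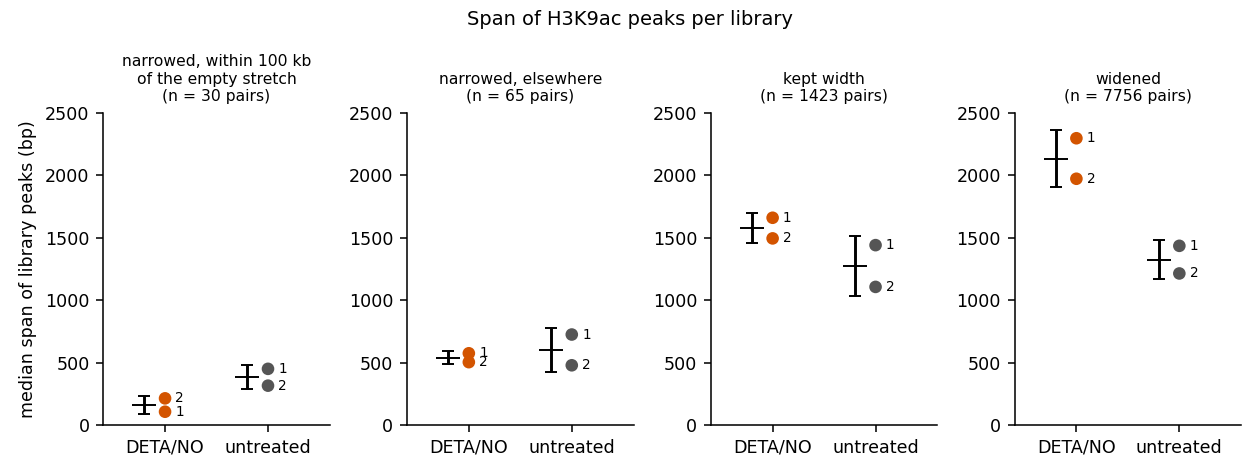
Median span of H3K9ac peaks (bp) per library in narrowed pairs near the longest empty stretch, other narrowed pairs, kept pairs and widened pairs, DETA/NO left and untreated right; points are libraries labelled by replicate and the bars show mean ± SD (n = 2). In kept pairs untreated replicate 1 lies just below treated replicate 2 and further below treated replicate 1, while in narrowed pairs near the stretch both treated libraries lie below both untreated ones.

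Which pairs counted as not widened moved with the single libraries. In 819 members, or 54.0%, the untreated region had the same width, within 1 bp, as the span of peaks in untreated replicate 1, and in 89 that of untreated replicate 2. Among widened pairs, untreated replicate 1 gave the width of 28.9%. There the outer bounds over which spans were taken reach further past the untreated region, so the rule itself makes a match less likely. The contrast with members is therefore partly built in. Members had a span ratio of at most 1.25 against untreated replicate 1 in 79.5% with treated replicate 1 and in 87.7% with treated replicate 2. Against untreated replicate 2 this held for 29.2% with treated replicate 1 and 45.8% with treated replicate 2. The treated libraries had 79538 and 69151 peaks, against 120630 in untreated replicate 1 and 59724 in untreated replicate 2. With the outer bounds of library peaks as widths in place of the reproducible sets, 3196 pairs were not widened, and 1473 of the 1518 members were among them. On that scale, leaving out treated replicate 1 gave 5519 pairs with 1505 members, and leaving out treated replicate 2 gave 3483 pairs with 1483 members. Leaving out untreated replicate 1 gave 793 pairs with 398 members, and leaving out untreated replicate 2 gave 2315 pairs with 1163 members. Outer bounds can only shrink when a library is left out. Leaving out a treated library could therefore only raise the number of pairs, and leaving out an untreated one could only lower it. In size, the number moved most without treated replicate 1 or untreated replicate 1, and the fewest members were left without untreated replicate 1. The part of the number of calls in this was not tested.

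Calls also split differently. More than 1 peak was called inside a member in 8.89% and 16.6% of members in treated replicates 1 and 2, and in 15.0% and 42.4% in untreated replicates 1 and 2. In widened pairs the shares were 7.54% and 41.5% in treated libraries, against 40.2% and 52.5% in untreated libraries. Members thus had fewer broken calls than widened pairs in treated replicate 2 and in both untreated libraries. Peaks were counted within the outer bounds of both regions of a pair. In widened pairs these reach further past the untreated region, so the contrast in untreated libraries is partly built into the rule. The rule also picks wider treated regions for widened pairs, so the contrast in treated replicate 2 is not independent of it either.

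A smaller group kept to the limit in every library comparison. The span ratio was at most 1.25 in all 4 comparisons of a treated with an untreated library in 297 members, in none of the 4 in 57 and in exactly 2 of the 4 in 810. Of the 297, 235 kept their width. These 235 had median spans of 1817 and 1679 bp in treated libraries, against 1664 and 1601 bp in untreated libraries, a closeness that their selection fixed. The best-scoring of them in the treated set, chosen after their values were seen, was on chromosome 6. It ran over chr6:42748321-42752106 in the treated set and chr6:42748434-42752017 in the untreated set (hg19, counted from 1, as all coordinates here), 3786 and 3584 bp wide. Its peaks spanned 3786 and 3414 bp in treated libraries and 3503 and 3459 bp in untreated libraries, so the conditions overlapped. It had the highest treated score of any member, 6.62, with 5.14 in the untreated set. Another lay on chromosome 9, at chr9:140170772-140173429 in the treated set and chr9:140171097-140173535 in the untreated set. Its peaks spanned 2585 and 2593 bp in treated libraries, between the 2801 and 2081 bp of untreated libraries.

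The widest members were long acetylated domains that gained 753 to 1170 bp with ratios under the limit. The widest ran over chr7:5463673-5470573 in the treated set, 6901 bp, and chr7:5463883-5469816 in the untreated set, 5934 bp. Its peaks spanned 6901 and 6845 bp in treated libraries and 5880 and 5872 bp in untreated libraries, with no overlap between conditions. The neighbouring region, 106 bp away in the treated set, was also among the 10 widest, with 5863 bp in the treated set and 4734 bp in the untreated set. In that neighbour the untreated peaks spanned 5887 and 4663 bp, around the treated 5846 and 5672 bp, but the 5887 bp run past the pair. Within the pair 4980 and 4663 bases were covered in untreated libraries, both below the 5846 and 5672 in treated libraries. On chromosome 17, chr17:4848768-4854885 was 6118 bp wide in the treated set, against 5101 bp untreated. Across the 10 widest members the ratio lay between 1.16 and 1.24, all treated spans of replicate 1 were called as 1 peak, and all 10 kept their width by the limits above.

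The narrowed members were short regions. Their median width was 405 bp in the treated set and 725 bp in the untreated set. Both edges moved inward in 69 of the 95 and both outward in none. Their treated score stood low among the pairs, at a median percentile of 7.27, while their untreated score stood at 47.3. Median spans were 360 and 408 bp in treated libraries, against 679 and 438 bp in untreated libraries.

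Pairs at the edges of the longest uncalled stretch of their chromosome had mostly narrowed, although most narrowed members lay elsewhere. For each autosome the longest stretch that none of the 10 deposited lists touches was found; these are at least 3000564 bp long. From general knowledge of hg19, not checked against a gap table here, they match the centromeres and the short arms of the acrocentric chromosomes. Of 35 pairs within 100 kb of such a stretch, 30 had narrowed, 3 had kept their width and 2 had widened. That is 85.7% narrowed (95% Wilson interval 70.6 to 93.7), with a median ratio of 0.36. From 100 kb to 1 Mb, 6 of 84 pairs had narrowed, and the median ratio was 1.47. From 1 to 10 Mb it was 16 of 1216 pairs, and beyond 10 Mb 43 of 7939, or 0.542%, with a median ratio of 1.66. The median distance of the 95 narrowed members was 6.39 Mb. Of the 31 pairs whose width fell to under 0.5 times the untreated width, 23 lay within 100 kb of the stretch and 28 within 1 Mb. The distance was examined after the positions of the narrowed members had been seen.

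**Figure D3:**
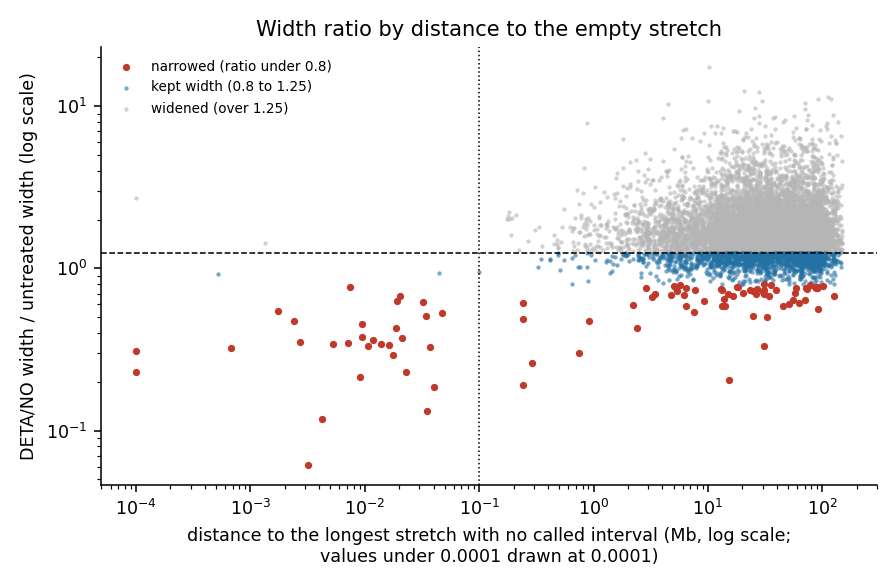
Width ratio (DETA/NO over untreated, log scale) of each pair against its distance in Mb (log scale) from the longest stretch of its chromosome with no called interval; the dashed line is a ratio of 1.25 and the dotted line 0.1 Mb. Left of the dotted line 30 of 35 pairs are red, with ratios of 0.06 to 0.77.

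The 30 narrowed members near these stretches lay on 9 chromosomes, with 13 on chromosome 16, 5 on chromosome 8, 3 on chromosome 2, 2 each on chromosomes 5, 10 and 17, and 1 each on chromosomes 1, 18 and 19. All 30 had a span ratio of at most 1.25 in all 4 library comparisons. In 29 of the 30 both treated libraries covered fewer bases than both untreated ones, against 3.98% of all merged regions, an order largely built into the choice of narrowed pairs. Median spans were 109 and 216 bp in treated libraries, against 452 and 317 bp in untreated libraries. By treated score they stood at a median percentile of 7.45 among the pairs, against 69.5 by untreated score. The reproducible sets as a whole held 52 treated regions within 100 kb of a stretch, with a median width of 212 bp, and 109 untreated regions, with a median width of 487 bp. Beyond 100 kb the median was 1576 bp for treated and 1122 bp for untreated regions.

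The lists differ in the narrowest interval they hold, which moves in the same direction. The narrowest peak was 99 and 114 bp in treated replicates 1 and 2, against 238 and 175 bp in untreated replicates 1 and 2. Of the 30 narrowed members near the stretches, 20 had a treated region under 238 bp, the narrowest of the untreated set, so no region of the untreated set was that narrow. With every treated width raised to at least 238 bp, 29 of the 30 had a ratio under 0.8, and their median ratio was 0.54 in place of 0.34. A raised region stays under 0.8 wherever its untreated region is wide enough. For raised regions this count therefore follows from the untreated widths and cannot tell narrowing from the difference between the lists. Without untreated replicate 1, using library peaks for the widths, 60.0% of the 35 pairs had a ratio under 0.8. With no library left out it was 80.0%, and leaving out an untreated library can only lower this share.

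The chromosome 16 members formed a chain. All 13 pairs within 100 kb of the stretch there had narrowed, between 46387257 and 46432945, a length of 45.7 kb. Their widths were 121 to 380 bp in the treated set and 288 to 759 bp in the untreated set, with ratios of 0.23 to 0.77. At chr16:46408327-46408460 a treated region of 134 bp lay in an untreated one of 580 bp, and the peaks spanned 102 and 134 bp in treated libraries, against 474 and 524 bp in untreated libraries. These members are neighbours and are not separate tests of the pattern. Leaving chromosome 16 out, 17 of 22 pairs near a stretch had narrowed, or 77.3%.

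The smallest ratio of all was 0.06, on chromosome 2, where chr2:92319836-92319964 in the treated set, 129 bp, lay in chr2:92319708-92321822 in the untreated set, 2115 bp. The peaks spanned 104 and 1309 bp in treated libraries and 2115 and 1442 bp in untreated libraries. Treated replicate 2 called 3 separate peaks there, so the deposited treated region held only a part of what this library called. The bases covered were 104 and 405 in treated libraries, against 2115 and 1093 in untreated libraries. On chromosome 18, chr18:18518818-18519393 in the treated set was 576 bp and the untreated region 4922 bp. The libraries spanned 109 and 4328 bp with nitric oxide and 4922 and 4450 bp without. The bases covered were 109 and 2577 in treated libraries, against 4922 and 3000 in untreated libraries. At both loci treated replicate 1 had a single peak near 100 bp and treated replicate 2 had several. By covered bases both treated libraries were below both untreated ones, and treated replicate 2 by less than the ratio of the reproducible sets.

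Members included the highest-scoring untreated peaks of the series. The 10 members with the highest untreated score had scores of 5.42 to 6.27, and 8 of them had narrowed. Widened pairs reached 5.91, within that range. In the highest of 5 groups of pairs by untreated score 14.8% were members, against 16.4% of all pairs, so high untreated scores were not particular to members. Within 1 Mb of the longest empty stretch lay 9 of the 10, and the tenth was at chr18:107993-109971. The first was at chr7:61968647-61969621 in the treated set, 975 bp, and chr7:61968587-61969760 in the untreated set, 1174 bp, with scores of 3.30 treated and 6.27 untreated. It contained the highest-scoring peak of both untreated library lists. By peak score it stood at percentiles 6.30 and 69.3 of the pairs in treated replicates 1 and 2, and at 99.99 in each untreated replicate. The second was at chr6:58776195-58779360 in the treated set, 3166 bp, against 3432 bp untreated. It stood at percentiles 7.41 and 61.5 in treated replicates 1 and 2, against 99.98 in each untreated replicate. At both, the treated libraries were far apart from each other in rank and both ranked below the untreated ones.

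Away from these stretches, 65 members had narrowed, and they were less extreme. Their median ratio was 0.69. Median spans were 576 and 505 bp in treated libraries and 726 and 480 bp in untreated libraries, so the conditions overlapped. Both treated libraries covered fewer bases than both untreated ones in 18 of the 65, against 3.98% of all merged regions, and here too the choice by narrowed width favours that order.

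Members were spread over all 22 autosomes, in unequal shares. Chromosome 19 had the highest share, 182 of 804 pairs or 22.6% (95% Wilson interval 19.9 to 25.7). Chromosomes 21, 20 and 9 followed with 22.2% (14.9 to 31.8), 21.9% (17.6 to 26.8) and 20.3% (16.8 to 24.4), whose intervals overlap that of chromosome 19. The lowest shares were 6 of 141 pairs on chromosome 13, or 4.26% (1.96 to 8.97), and 8 of 120 on chromosome 18, or 6.67% (3.42 to 12.6). Across the 22 chromosomes the share went with the number of treated H3K9ac regions per Mb (Pearson r = 0.53, Spearman rho = 0.54, as a description, since chromosomes share the libraries). Chromosome 21 stood off that relation, with a high share and 4.53 treated regions per Mb, against 26.0 on chromosome 19. Chromosome 16 had 14 narrowed members of its 46, 13 of them in the chain above.

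**Figure D4:**
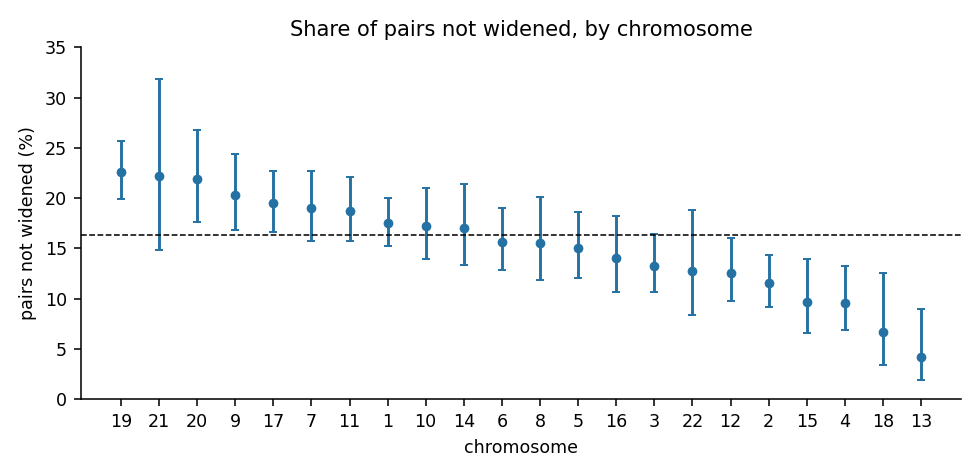
Percentage of one-to-one pairs that were not widened on each autosome, in falling order, with 95% Wilson intervals; the dashed line is the share over all autosomes, 16.4%. Chromosomes 19, 21 and 20 are highest and chromosome 13 is lowest at 4.26%.

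Members were more frequent among pairs that were already wide in untreated cells. In 5 equal groups of pairs by untreated width, the share of members was 12.8%, 12.1%, 15.97%, 18.1% and 22.8% from the narrowest to the widest group. The untreated width is the lower term of the ratio, so this order is partly built into the rule. When the pairs were grouped by their span in untreated replicate 2 instead, the shares ran the other way, at 21.5%, 16.8%, 15.9%, 14.1% and 13.6%. By the span in untreated replicate 1 they were 17.4%, 16.6%, 16.8%, 16.7% and 14.4%. The relation to untreated width was thus not seen by these spans. They take in every peak that touches the outer bounds of both regions, which reach further past the untreated region in widened pairs. The orders by span are therefore partly built into the rule too, and cannot decide whether the relation holds in single libraries. By untreated score the shares lay between 14.8% and 17.6%, with no steady order. By treated score they were 19.8%, 12.99%, 15.6%, 14.7% and 18.7% from the lowest to the highest group, so members were most frequent at both ends. Narrowed members were concentrated at low treated scores, with 76 of the 95 in the lowest of 5 groups.

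Members stood closer to other acetylated regions. Another treated region lay within 1 kb of 464 members, or 30.6% (95% Wilson interval 28.3 to 32.9), against 23.7% (22.8 to 24.7) of widened pairs. In the untreated set a neighbour lay within 1 kb of 16.7% (14.9 to 18.7) of members and 11.3% (10.6 to 11.98) of widened pairs. Within 250 bp the shares in the treated set were 22.99% for members and 18.5% for widened pairs. Regions that merged with a neighbour in the treated set were left out by the rule, so this share is not independent of it.

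The limit of 1.25 cut through a continuous range of ratios. Just inside it was chr17:76311142-76313161 in the treated set, 2020 bp, against 1616 bp untreated, a ratio of 1.25. Just outside it was chr1:22107596-22111138, 3543 bp in the treated set against 2834 bp untreated. The 5 nearest pairs on either side had ratios between 1.2495 and 1.2505. At the other extreme, the largest ratio among widened pairs was 17.4, at chr9:75766035-75770311, 4277 bp treated against 246 bp untreated. In that pair the untreated libraries had peaks spanning 2637 and 1390 bp, much more than the untreated region itself.

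H3K9me2 was not used to choose the members, and it tests whether they lie nearer to silent domains. Distances were taken from each pair to the nearest H3K9me2 island of each library, leaving out 6 members on chromosome 13, which held no island. The median distance of members was 885 and 1160 kb in treated replicates 1 and 2, against 967 and 861 kb in untreated replicates 1 and 2. For widened pairs it was 858 and 1154 kb in treated libraries, and 972 and 916 kb in untreated libraries. Members were nearer than widened pairs in 2 of 4 libraries, and the difference averaged over all 4 was -6.94 kb (members minus widened, exact two-sided sign-flip test over the 4 libraries, p = 0.875, with 0.125 the smallest p it can give). No difference between members and widened pairs was detectable in this design. Its direction also turned under other settings, to members being 74.0 kb further with only the higher-scoring islands. Members averaged 1022 kb ± 194 in treated cells and 914 kb ± 74.9 in untreated cells (SD, n = 2 each), a difference of 109 kb (exact two-sided permutation p = 0.667, smallest possible 0.333). This difference turned to -28.6 kb without treated replicate 2.

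**Figure D5:**
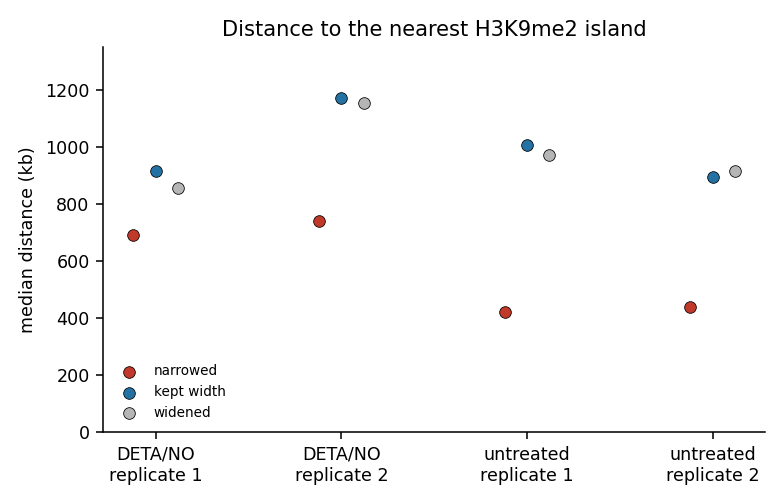
Median distance (kb) to the nearest H3K9me2 island in each of the 4 H3K9me2 libraries, for narrowed, kept and widened pairs. Kept and widened pairs lie side by side in every library, and narrowed pairs lie lower, most of all in the untreated libraries.

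By its median the whole narrowed set was nearer to H3K9me2 than widened pairs in all 4 libraries, but it joined unlike groups. Its median distance was 691 and 740 kb in treated libraries, and 423 and 440 kb in untreated libraries. The 30 narrowed members near the empty stretches, 13 of them in the chromosome 16 chain, had medians of 12853 and 12405 kb in treated libraries, against 0 and 70.0 kb in untreated libraries. All these medians lie within the range of that chain, which was 12846 to 12892 kb and 12399 to 12444 kb in treated libraries. In untreated libraries the chain lay at 0 kb and at 31.6 to 76.9 kb. The medians thus describe 1 locus and give no direction for the other near members. Of the 30, 8 and 7 lay within 100 kb of an island in treated libraries, against 21 and 18 in untreated libraries. The other 65 narrowed members were at 635 and 575 kb in treated libraries, and 698 and 695 kb in untreated libraries, below the widened pairs in all 4. Members that kept their width were at 917 and 1174 kb in treated libraries, and 1009 and 897 kb in untreated libraries, further than widened pairs in 3 of 4. Since the split into narrowed and kept was made after the values were seen, it was given no test.

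Contact with H3K9me2 islands was rare and came mostly from 1 library. Islands overlapped 2 and 2 of the 1518 members in treated libraries, and 25 and 2 in untreated libraries. Of the 7756 widened pairs, a far larger group, 19 and 8 were overlapped in treated libraries, and 8 and 8 in untreated libraries. As shares of pairs with an island on their chromosome, 2.98% and 1.32% of members lay within 10 kb of one in treated libraries, and 2.65% and 1.72% in untreated libraries. For widened pairs the shares were 2.43% and 1.08% in treated libraries, and 1.13% and 1.23% in untreated libraries. Of the 25 members on islands of untreated replicate 1, 19 had narrowed, and 18 of these lay within 100 kb of the longest empty stretch. The chain on chromosome 16 was at least 12399 kb from any island in the treated libraries. In untreated replicate 1 all 13 of its members lay on islands, and in untreated replicate 2 they were 31.6 to 76.9 kb from one. H3K9me2 was thus called close to the chain in neither treated library and in both untreated ones. With 2 libraries per condition an exact two-sided permutation test of this could not give a p under 0.333.

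No H3K9me2 change was called around the members. The share of the 100 kb around each merged autosomal H3K9ac region that islands covered was compared between conditions in 2519 windows with any H3K9me2, 191 of them around members. At an adjusted p below 0.05, limma called 0 windows higher and 0 lower, or 0% in each direction, and the smallest adjusted p was 0.587. At an unadjusted p under 0.05, 36 windows were higher and 21 lower, with 5 and 1 around members. The member with the smallest p was a narrowed one within chr14:51561629-51562501, with island shares of 0% and 0% in treated libraries, against 48.6% and 39.1% in untreated libraries (limma adjusted p = 0.587). The next was within chr11:107435223-107436925, with 54.5% and 51.5% in treated libraries, against 20.5% and 7.43% in untreated libraries. Of the 191 windows around members, 105 had a higher and 86 a lower treated share. Without treated replicate 2, limma called 785 windows, 736 higher and 49 lower, or 33.1% of 2374 tested. Of the 179 windows around members in that fit, 52 were called higher and 4 lower, or 31.3%, close to the share of all windows. Leaving out any other library gave 0 calls.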

How the data were processed

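The deposited data were 10 interval lists of MDA-MB-231 libraries: peaks of the 4 H3K9ac libraries, 2 reproducible H3K9ac sets and islands of the 4 H3K9me2 libraries. The submitters' processing notes list hg19, SICER, MACS2, Picard, BWA 0.7.5 and Trimmomatic 0.32, without roles or settings. In the reproducible sets the deposited score was taken to be −log10 of the IDR, since no score lies below 1.301, which an IDR of 0.05 gives. The scale of the authors' score per library peak and per H3K9me2 island is not given in the sources used here, and scores only rank intervals within a list. The lists hold no reads, so depth is unknown and the number of calls limits precision. The 4 inputs were not analysed here.

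Pairs, widths, spans and distances were computed with SciPy 1.17.1, numpy 2.4.6 and pandas 2.3.3 under Python 3.11.15, with overlap of at least 1 bp. limma 3.58.1 in R 4.3.3 was fitted to the arcsine square root of island shares in 100 kb windows, with Benjamini-Hochberg adjustment over all windows with any island. The pairing and limma steps were tested on simulated data. The members, subsets and tests were chosen with earlier results of these data known. Loci named are the members with the highest untreated score, smallest ratio and largest treated width (10 each), the 5 pairs on either side of the limit and the 5 largest ratios, described by examples. Chosen after their values were seen were members within the limit in all 4 library comparisons and those with the smallest limma p. Gene names, gene lists and sequences need an hg19 annotation or genome and were not used here. Replicates are labelled biological. Alternatives were other limits, overlaps, score minimums, windows and island sets, a replicate block and leaving out each library.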

Additional observations from a re-analysis of the deposited data

How the results depend on the processing

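Members numbered 1518. With ratio limits of 1.1 and 1.5 there were 655 and 3510. A 50% overlap, a score of at least 2 and a treated set of equal size gave 1139 to 1563. Raising treated widths to at least 238 bp left 1518, a number it could not change. Alternatives that used widths from library peaks, treated widths raised to 238 bp, a crossed block or pairs away from the empty stretch were chosen after seeing the data. With the outer bounds of library peaks as widths, 3196 pairs were not widened, and leaving out 1 library at a time gave 793 to 5519. The direction of each such move was fixed, since outer bounds can only shrink. The share narrowed within 100 kb of the longest empty stretch was 85.7%, and 54.0% within 500 kb. On widths from library peaks it was 80.0%, and leaving out 1 library gave 60.0% to 85.7%, with directions fixed in the same way. The difference in covered length of members kept its direction in all 7 alternatives, and leaving out 1 library gave 137 to 543 bp. The distance of members minus widened pairs was -6.94 kb. It turned to 74.0 kb with the higher-scoring islands (p = 0.25, exact sign-flip), to 12.3 kb with islands of at least 10 kb (p = 0.625, exact sign-flip), and lay between -18.3 and 9.26 kb with 1 library left out. The distance of members in treated minus untreated libraries, 109 kb, turned to -95.4 kb with islands of at least 10 kb, and lay between -28.6 and 246 kb with 1 library left out. The cause of these turns was not tested. limma called 5 windows with the replicate block and 0 without it. Same-numbered libraries deviated with a correlation of -0.133, and with the numbers crossed it called 21, none around members in either fit. Leaving out 1 library gave 0 to 785 calls.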

Other observations

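Of the 57 members with a span ratio above 1.25 in all 4 library comparisons, 56 had kept their width in the reproducible sets and 1 had narrowed. Conversely, 110 widened pairs, 1.42% of them, had a span ratio of at most 1.25 in all 4 comparisons. Members that held to the limit in all 4 comparisons were 235 of the 1423 that kept their width and 62 of the 95 that narrowed.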
